A study of Mus musculus with 12 samples.

Results

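Ambient particles given alone were compared with vehicle in the lungs of A/J mice, with the groups named as labelled. The comparison used 6 of the 12 arrays of the experiment, 3 labelled PM and 3 labelled Control, and every probe set whose 3 arrays in at least 1 of the 2 groups reached the median of all values. That rule kept 22246 of the 45101 probe sets, and 11159 genes among them had a probe set with 1 symbol.

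By these labels the mice, males of 8 to 10 weeks, had received no ovalbumin. Control mice (PBS/PBS) received phosphate buffered saline only. Particle-exposed mice (PBS/PM) were dosed by oropharyngeal aspiration with ambient Baltimore particles, using 50 µl of a 10 mg/ml suspension. The particles thus reached the lung in liquid rather than from inhaled air. The other 6 arrays came from mice sensitised and challenged with ovalbumin, at 0.4 mg/kg into the peritoneum on day 0 and 30 mg/kg into the trachea on day 14, without particles (OVA/PBS) or with them (OVA/PM), and serve here as values set alongside. Total lung RNA was hybridised to Affymetrix whole-genome mouse arrays, on which a set of short probes reads each transcript, and values are log2 signals after GCRMA normalization. The methods give 3 animals per group, but no label ties an array to an animal, so p-values measure the spread between these arrays.

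A type 2 response in the airway is driven by the cytokines IL-4, IL-5 and IL-13. IL-13 acts on airway epithelium, which responds with goblet cells that secrete gel-forming mucins together with a characteristic group of proteins, among them a calcium-activated chloride channel regulator, intelectin and trefoil factors. The same cytokines act on macrophages, which then make chitinase-like proteins and resistin-like alpha, and on tissue cells that release chemokines for eosinophils and monocytes. Particles that carry polycyclic hydrocarbons and metals are known in addition to engage the aryl hydrocarbon receptor and antioxidant defences.

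The group names carry a doubt that touches every result. Ratios of linear group means for selected probe sets were set against the folds printed for the same experiment elsewhere. All 28 of the 28 ratios were equal to 1 decimal when the names OVA and PM were exchanged between arrays, and 4 of 28 were equal with the names as labelled. Those 4 were ratios of Rgs9 and Sema7a, whose printed folds are the same under OVA and PM, so they match under either naming. No other ratio was equal with the names as labelled. The labels were kept, and each direction below belongs to the arrays labelled PM against those labelled Control. If the exchanged names are the right ones, the arrays labelled PM came from mice given ovalbumin without particles. With the names exchanged, 4326 probe sets passed the threshold.

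Single arrays also stood apart. In PBS/PBS replicate 1, 78 probe sets lay more than 2 log2 units above the other 5 arrays, against 0 to 16 on each of the others, and they held the liver transcripts Alb (log2 signal 13.38), Ttr (12.28) and Apoa1 (10.42), all near the floor elsewhere. Keratins of squamous epithelium split both groups, with Krt13 at 13.19, 12.01 and 2.34 in PBS/PBS and 13.25, 9.74 and 2.75 in PBS/PM. Granule genes of maturing neutrophils, Ngp (11.16) and Camp (8.61), were high in PBS/PBS replicate 3 only. In PBS/PM replicate 2 the inflammatory genes Cxcl2 (9.92), Ccl3 (7.12) and Osm (6.16) were highest, and in PBS/PM replicate 3 the plasma cell gene Mzb1 (11.37) and the proliferation genes Mki67 (8.85) and Top2a (7.95). The defining genes of alveolar type 2, alveolar type 1, club, ciliated and endothelial cells reached the median level on all 6 arrays. Of the 4 markers of cartilage and the 4 of thymus, 3 each (Col2a1, Acan and Cnmd, and Dntt, Rag1 and Ptcra) lay under it on all 6. The other cartilage marker, Chad, a matrix protein, read 7.34, 7.25 and 7.29 in PBS/PBS and 8.61, 9.15 and 9.43 in PBS/PM, a difference of 1.77 (SE 0.20, limma adjusted p = 0.0814). The other thymus marker, Cd8b1, which cytotoxic T cells also make, overlapped between the groups.

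**Figure D1:**
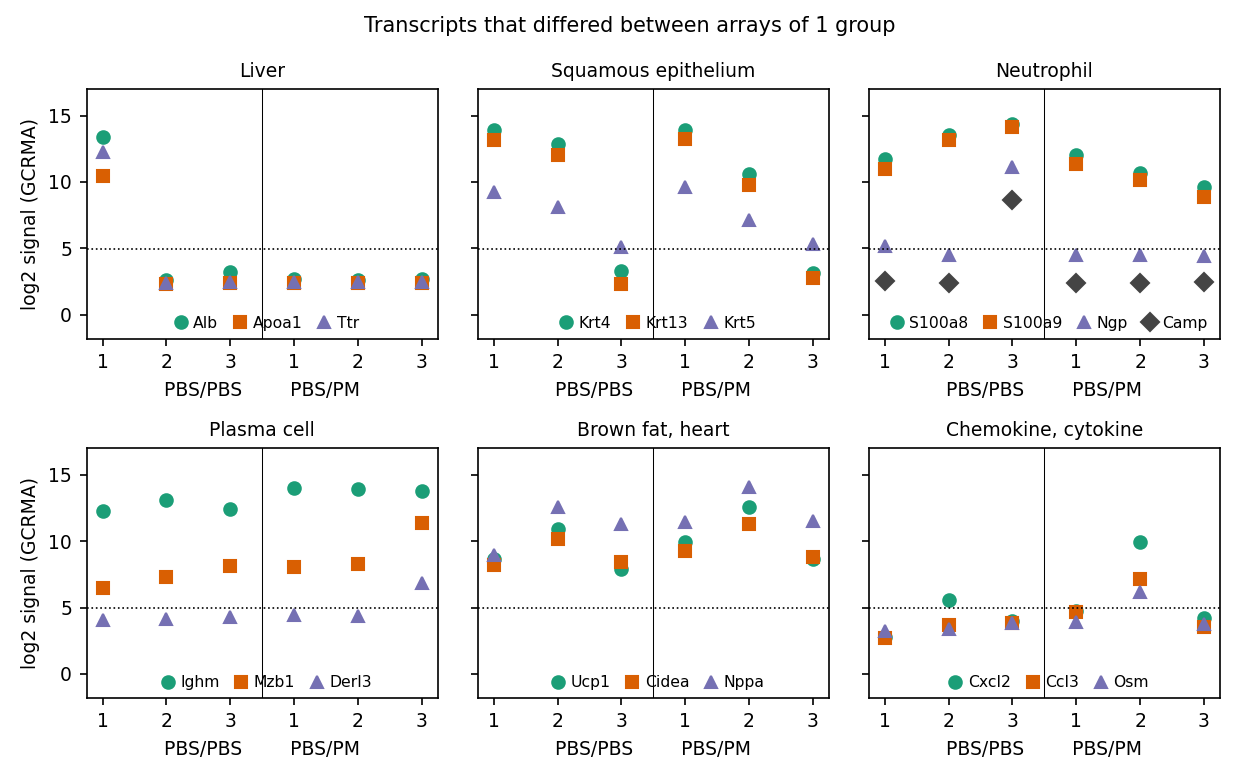
Log2 signal (vertical axis) of marker genes on the 3 PBS/PBS and 3 PBS/PM arrays, replicates 1 to 3 of each group from left to right; each symbol is 1 gene on 1 array and the dotted line is the median of all values (4.93). Liver genes stand high in PBS/PBS replicate 1 alone, and the squamous keratins fall away in replicate 3 of both groups.

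In the PBS/PM arrays, members of the lists of secreted goblet cell products (Clca1, Itln1, Tff2, Bpifb1) and type 2 macrophage genes (Retnla, Chil4) were higher than in the PBS/PBS arrays. So were the ribonuclease Rnase2a of the eosinophil list, the chemokine Ccl12, the tight junction protein Cldn22, the lymphocyte receptor Klrg1 and the airway protein Lypd2. The fitted differences ran from 1.02 to 11.90 on the log2 scale. One gene with a symbol, Pde8a, was lower. Across the 22246 probe sets, 12 were higher (0.0539%) and 4 lower (0.018%) at a limma adjusted p under 0.05, and 3 of the 4 lower ones had no single symbol. By gene, 11 of 11159 were higher by more than 2-fold (0.0986%). With PBS/PBS replicate 1, 2 or 3 left out, 6, 7 and 4 probe sets passed, of which 4, 4 and 3 were among these 16. With PBS/PM replicate 1, 2 or 3 left out, 7, 3 and 11 passed, of which 4, 3 and 8 were among them. In whole tissue, more cells of a type and more RNA per cell cannot be told apart, and the name of a list does not show which cells made a transcript.

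**Figure D2:**
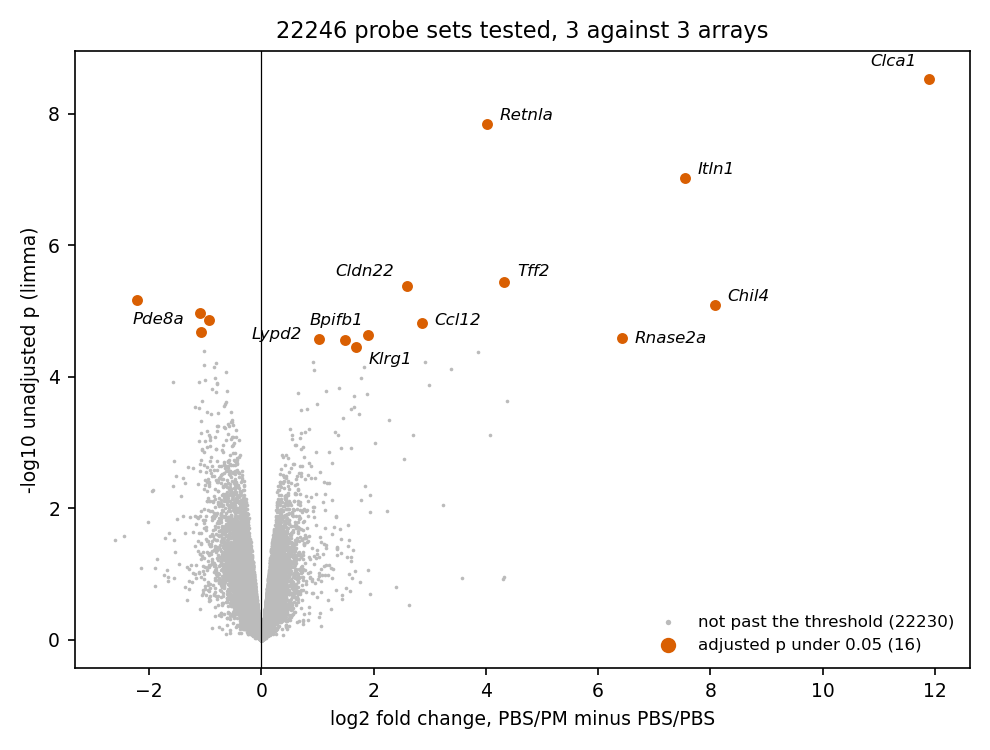
Fitted log2 fold change, PBS/PM minus PBS/PBS (horizontal axis), against -log10 of the unadjusted limma p (vertical axis) for the 22246 probe sets tested; orange points are the 16 with an adjusted p under 0.05. The points past the threshold lie mainly on the right, with Clca1 at 11.90, Chil4 at 8.08 and Itln1 at 7.55.

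Among the goblet cell products, Clca1, a secreted regulator of chloride conductance found in mucus, had log2 signals of 2.39, 2.40 and 2.38 in PBS/PBS and 14.03, 13.95 and 14.88 in PBS/PM. The PBS/PBS arrays were at the floor of the array, and the rise, 11.90 (SE 0.25) with a limma adjusted p of 6.57e-05, was at least 656-fold. At least-fold values here set the PBS/PM mean against the median level of all values, since a signal under it has only a bound. Itln1, intelectin, a lectin that binds microbial sugars, stood at 4.61, 4.67 and 4.75 against 11.72, 12.11 and 12.85. It rose by 7.55 (SE 0.27), at least 157-fold, with a limma adjusted p of 0.000718. Both genes kept an adjusted p under 0.05 without each of the 6 arrays in turn.

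Tff2, a trefoil peptide that stabilises mucus, read 5.85, 5.65 and 5.07 in PBS/PBS and 9.58, 9.62 and 10.36 in PBS/PM. The difference was 4.33 (SE 0.28, limma adjusted p = 0.0188). Bpifb1, a secreted antimicrobial protein of the upper airway, was at 11.28, 11.71 and 11.29 against 12.82, 12.94 and 12.96, a difference of 1.48 (SE 0.14, limma adjusted p = 0.0404). A second Bpifb1 probe set differed by 1.38 (SE 0.17) and missed the threshold at 0.0917. Tff2 and Bpifb1 each passed in 1 of the 6 fits without an array, so their calls rest on the full set of arrays even though no array of one group overlapped the other.

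Retnla, resistin-like alpha, a product of IL-4 and IL-13 stimulated macrophages and airway epithelium, was bright on every array. It read 10.22, 10.44 and 10.26 in PBS/PBS and 14.26, 14.21 and 14.48 in PBS/PM, a rise of 4.01 (SE 0.11, limma adjusted p = 0.000163) that passed in 6 of 6 fits without an array. Chil4, a chitinase-like lectin, went from 3.25, 2.94 and 3.06 to 9.96, 11.0005 and 12.53. That rise was 8.08 (SE 0.61, limma adjusted p = 0.0258), at least 75.2-fold, and passed in 2 of 6 such fits. Chil3, its near-identical neighbour on chromosome 3, was already at 11.78, 11.55 and 11.47 in PBS/PBS and read 12.51, 12.41 and 13.85 in PBS/PM, a difference of 1.32 (SE 0.39) with a limma adjusted p of 0.474. Whether probes of one read transcripts of the other was not tested.

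The 250 bases before the start of transcription are printed for called goblet cell, macrophage, eosinophil and chemokine genes found in the promoter set used. That set had no entry for Clca1, Tff2, Klrg1 and Lypd2. Bases are from mouse build GRCm38.p6 and run 5′ to 3′ on the gene's own strand. The windows are shown because STAT factors activated by IL-4, IL-13 and other cytokines bind palindromes of the form searched for. Capitals mark a match to TTCNNNNGAA or TTCNNNGAA. Both motifs read the same on either strand, so 1 strand was searched. Chil3 is shown beside Chil4 to let the pair be read together.

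Retnla (chr16:48842359-48842608, plus strand): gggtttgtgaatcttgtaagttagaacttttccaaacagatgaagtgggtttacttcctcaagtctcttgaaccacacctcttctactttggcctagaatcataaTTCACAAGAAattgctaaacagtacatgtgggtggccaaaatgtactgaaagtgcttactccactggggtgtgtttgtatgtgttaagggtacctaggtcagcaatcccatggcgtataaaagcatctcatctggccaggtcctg
Chil4 (chr3:106219480-106219729, minus strand): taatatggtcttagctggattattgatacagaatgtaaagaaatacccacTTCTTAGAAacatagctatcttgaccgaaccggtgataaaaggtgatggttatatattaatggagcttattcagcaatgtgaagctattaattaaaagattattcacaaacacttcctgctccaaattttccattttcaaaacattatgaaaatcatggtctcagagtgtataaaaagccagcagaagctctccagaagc
Chil3 (chr3:106167565-106167814, minus strand): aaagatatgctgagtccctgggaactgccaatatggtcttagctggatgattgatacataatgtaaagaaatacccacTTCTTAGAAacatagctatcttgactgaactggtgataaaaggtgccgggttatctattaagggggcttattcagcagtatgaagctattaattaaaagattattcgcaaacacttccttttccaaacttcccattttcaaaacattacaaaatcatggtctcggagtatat
Itln1 (chr1:171535295-171535544, minus strand): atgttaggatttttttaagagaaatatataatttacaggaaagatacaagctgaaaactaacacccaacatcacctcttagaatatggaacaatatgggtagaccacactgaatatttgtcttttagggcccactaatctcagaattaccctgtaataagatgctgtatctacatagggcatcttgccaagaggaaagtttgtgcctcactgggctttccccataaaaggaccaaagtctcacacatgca
Rnase2a (chr14:51256113-51256362, minus strand): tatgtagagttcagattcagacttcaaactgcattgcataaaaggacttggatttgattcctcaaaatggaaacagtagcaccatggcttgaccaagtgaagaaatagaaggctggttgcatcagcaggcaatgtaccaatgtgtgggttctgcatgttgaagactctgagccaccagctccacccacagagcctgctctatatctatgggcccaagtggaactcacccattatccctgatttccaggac
Ccl12 (chr11:82101595-82101844, plus strand): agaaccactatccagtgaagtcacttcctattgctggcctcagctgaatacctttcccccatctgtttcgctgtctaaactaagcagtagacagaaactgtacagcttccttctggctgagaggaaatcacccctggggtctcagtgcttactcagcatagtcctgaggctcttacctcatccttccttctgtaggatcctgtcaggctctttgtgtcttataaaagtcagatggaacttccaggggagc
Bpifb1, upstream start (chr2:154190568-154190817, plus strand): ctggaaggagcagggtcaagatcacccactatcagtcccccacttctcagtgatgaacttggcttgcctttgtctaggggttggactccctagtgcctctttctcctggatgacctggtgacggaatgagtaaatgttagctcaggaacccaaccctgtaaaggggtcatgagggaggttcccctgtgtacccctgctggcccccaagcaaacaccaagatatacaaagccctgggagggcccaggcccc
Bpifb1, downstream start (chr2:154200130-154200379, plus strand): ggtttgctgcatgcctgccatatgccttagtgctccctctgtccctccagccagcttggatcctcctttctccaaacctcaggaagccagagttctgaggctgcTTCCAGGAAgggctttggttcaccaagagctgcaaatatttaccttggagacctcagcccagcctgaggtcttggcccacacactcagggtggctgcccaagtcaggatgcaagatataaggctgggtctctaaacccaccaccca

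The Retnla window held TTCNNNNGAA at 136 to 145 bases before the start. The Chil4 and Chil3 windows held TTCNNNGAA at 192 to 200 and 164 to 172 bases before it, inside a run of 44 identical bases that the pair shares. The window of the downstream Bpifb1 start held TTCNNNGAA at 138 to 146 bases before it. Itln1, Rnase2a, Ccl12 and the upstream Bpifb1 start held neither. Of the 12 called genes, 8 had an entry, and 3 of those (Retnla, Chil4 and Bpifb1) had a window with either motif. Over 32851 promoter windows of this length, 5.85% held TTCNNNNGAA, 7.02% held TTCNNNGAA and 12.4% held either, so such a match is common.

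Rnase2a encodes a member of the eosinophil-associated ribonucleases, a family of closely related copies, so the reading may include relatives. Its log2 signal was 2.78, 2.72 and 2.77 in PBS/PBS and 9.07, 7.98 and 10.49 in PBS/PM. The rise was 6.42 (SE 0.59, limma adjusted p = 0.0404), at least 19.1-fold, and passed in 1 of the 6 fits without an array. It was the only called member of the eosinophil list. Epx and Prg2, which encode the peroxidase and major basic protein of eosinophil granules, stayed between 1.98 and 2.33 on all 6 arrays and were not tested. Of 9 eosinophil genes on the array, 2 passed the filter on level, 1 of them (Rnase2a) only through PBS/PM, and the median difference over all 9 was 0.02.

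Ccl12, a monocyte chemoattractant, rose from 2.54, 2.99 and 2.84 to 5.28, 5.54 and 6.14, by 2.86 (SE 0.24, limma adjusted p = 0.0340) and at least 1.65-fold, and passed in 1 of 6 fits without an array. Ccl8, a chemokine for monocytes and type 2 lymphocytes, had a larger and more scattered difference, from 6.00, 6.49 and 6.38 to 10.36, 9.63 and 12.00. At 4.37 (SE 0.58) its limma adjusted p was 0.114. For eotaxin, Ccl11, the arrays read 8.03, 7.74 and 7.11 against 9.65, 8.46 and 10.11, a difference of 1.78 (SE 0.46, limma adjusted p = 0.411). Ccl24, the second eotaxin, was at the floor on all 6 arrays. Of 14 eotaxins, monocyte chemoattractants and their receptors on the array, 8 were tested, 1 of them (Ccl12) only through PBS/PM. The tested median was 0.82, with 4 higher, Ccl12 among them, and 0 lower at an unadjusted p under 0.05. Of all genes tested, 4% were higher and 1.68% lower at that p. Over all 14 the median was 0.19, and without PBS/PBS replicate 1 the tested median was 0.52.

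Cldn22, a claudin, rose from 3.60, 3.59 and 3.93 to 6.24, 6.61 and 6.04, by 2.59 (SE 0.17, limma adjusted p = 0.0188) and at least 2.58-fold, and also passed in 1 of 6 such fits. Klrg1, an inhibitory receptor of natural killer cells, effector T cells and innate lymphoid cells, read 4.51, 4.51 and 4.85 against 6.34, 6.54 and 6.04. Its difference of 1.68 (SE 0.16), at least 2.59-fold, lay at the threshold itself, with a limma adjusted p of 0.04999. Lypd2, a small surface protein of the airway epithelium, read 9.75, 9.94 and 9.68 against 10.81, 10.78 and 10.85, a difference of 1.02 (SE 0.09, limma adjusted p = 0.0404). Klrg1 and Lypd2 passed in 0 of the 6 fits without an array. A probe set with no symbol also rose, by 1.90 (SE 0.17, limma adjusted p = 0.0404).

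Pde8a, a phosphodiesterase that degrades cyclic AMP, fell from 5.72, 5.60 and 5.57 to 4.69, 4.69 and 4.72, by 0.93 on the log2 scale (limma adjusted p = 0.0339). It passed in 0 of the 6 fits without an array. Its PBS/PM signals lay under the median level, so the fall was at least 1.62-fold, and its other, brighter probe set differed by 0.07 (SE 0.09). Of the lower probe sets without a single symbol, one fell by 2.22 and another by 1.10 (limma adjusted p = 0.0257 and 0.0301).

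**Figure D3:**
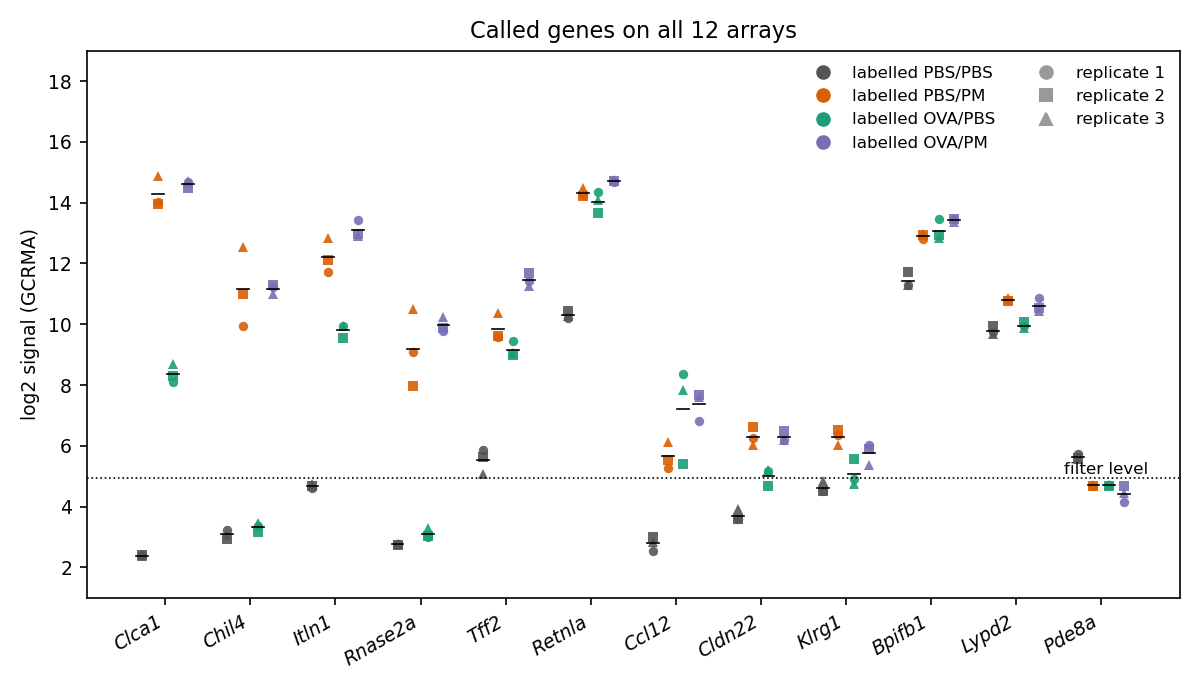
Log2 signal (vertical axis) of the 12 genes past the threshold on all 12 arrays; colours are the labelled groups, symbol shapes the replicate numbers, short bars the group means, and the dotted line the filter level of 4.93. Chil4 and Rnase2a lie near the floor in PBS/PBS and OVA/PBS and high in PBS/PM and OVA/PM.

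Among the 11 genes that were higher, the highest PBS/PM array was replicate 3 for 9 genes and replicate 2 for 2. The other groups are given by their levels, since all comparisons share the PBS/PBS arrays. For 8 of the 11, every OVA/PBS array lay under every PBS/PM array, and for all 11 every OVA/PM array lay above every PBS/PBS array. The 11 were picked for high PBS/PM and low PBS/PBS signals, which favours both counts. The shares over all genes were not computed, so the counts only describe these genes. Clca1 averaged 8.37 in OVA/PBS and 14.63 in OVA/PM, beside 14.29 in PBS/PM. Chil4 averaged 3.33 and 11.17, and Rnase2a 3.10 and 9.97, so these 3 genes set the labelled OVA/PBS arrays well apart from the labelled PBS/PM arrays. Ccl12 and Bpifb1 ran the other way, with OVA/PBS means of 7.20 and 13.08 above the PBS/PM means of 5.65 and 12.91. Retnla was close in the exposed groups, at 14.32 in PBS/PM, 14.03 in OVA/PBS and 14.72 in OVA/PM.

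Just outside the threshold lay further products of mucous cells and genes of other kinds. Fer1l6, a ferlin, read 3.19, 3.19 and 3.61 against 7.05, 6.50 and 8.03, a difference of 3.86 (SE 0.38, limma adjusted p = 0.0519). Its PBS/PBS signals lay under the median level, so this is a difference of at least 4.799-fold. Muc5b, the gel-forming mucin that airways make at rest, read 9.31, 9.41 and 9.15 against 10.81, 11.01 and 11.55, a difference of 1.83 (SE 0.20, limma adjusted p = 0.0661). Fcgbp, a large mucus protein that binds IgG, read 6.53, 6.78 and 6.88 against 9.32, 9.24 and 10.56, a difference of 2.98 (SE 0.36, limma adjusted p = 0.0846). In each of these the lowest PBS/PM array lay above the highest PBS/PBS array. For Fer1l6 and Fcgbp this was required by the rule that named them, so it is not a result.

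Muc5ac, the inducible gel-forming mucin, was at the floor in PBS/PBS (1.70, 2.34 and 2.12) and at 5.51, 5.14 and 7.72 in PBS/PM, a difference of at least 2.28-fold (fitted log2 difference 4.07, SE 0.67, limma adjusted p = 0.198). Slc26a4, pendrin, an anion exchanger of inflamed airways, read 6.12, 5.93 and 7.56 against 9.62, 8.9995 and 9.12 (limma adjusted p = 0.198). Agr2, which folds mucins in the endoplasmic reticulum, read 5.49, 5.87 and 4.82 against 7.67, 7.18 and 8.15 (limma adjusted p = 0.162), while a second Agr2 probe set differed by 0.43. Arrays of the 2 groups did not overlap in these 3 either. Muc5ac had also been named by the rule that requires this. By gene, 8.46% of those tested lay wholly higher in PBS/PM and 4.02% wholly lower.

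Of 17 goblet cell products on the array, 10 passed the filter on level, 3 of them only through PBS/PM. Their median difference was 2.49 on the log2 scale, 4 passed the adjusted threshold, and 9 were higher and 0 lower at an unadjusted p under 0.05. Over all 17 the median was 1.48 and 15 were positive, against a median of 0.0341 over all genes tested, of which 4% were higher and 1.68% lower at that unadjusted p. The exception among tested members was Bpifa1, with a difference of -0.68. The shares over all genes stand beside the counts of the other lists as well. How many of all genes had a positive difference was not computed. The 10 mucins on the array were less uniform, with a median of 0.14 over all of them and 2 of 5 tested members, Muc5b and Muc5ac, higher at that p. Muc5ac was tested only through PBS/PM. Of 13 goblet cell regulators on the array, 8 were tested, 1 of them only through PBS/PM, with a median of 0.21, 1 higher and 1 lower at the unadjusted p. Elf3, an epithelial transcription factor, read 7.07, 7.08 and 7.22 against 7.52, 8.00 and 7.69 (difference 0.62, limma adjusted p = 0.342). Nkx2-1, the lung lineage factor, read 6.43, 6.48 and 6.39 against 6.15, 6.17 and 6.07 (difference -0.31, limma adjusted p = 0.375). Spdef and Foxa3, factors known to drive the goblet programme, did not reach the level needed for a test. Of 26 genes for mucin folding and glycosylation, 19 were tested, with a median of 0.12, 3 higher and 0 lower at the unadjusted p.

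Of 18 type 2 macrophage genes, 10 were tested, 1 of them only through PBS/PM. The median was 1.10 among those tested and 0.24 over all 18, 2 passed the adjusted threshold, and 6 were higher and 0 lower at the unadjusted p. Besides Retnla and Chil4, the C-type lectin Mgl2 read 8.05, 8.18 and 8.32 against 9.23, 9.02 and 9.11, a difference of 0.94 (SE 0.10, limma adjusted p = 0.0673). Clec10a, its close relative, read 6.24, 6.49 and 7.07 against 7.83, 7.59 and 8.18, a difference of 1.26 (SE 0.25, limma adjusted p = 0.299). The mannose receptor Mrc1 differed by 0.23 and the scavenger receptor Cd163 by 0.16, so the list did not move as a block. Arg1 was at the floor on 5 of the 6 arrays and at 4.56 in PBS/PBS replicate 1, the array with liver transcripts.

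The cytokines themselves were barely seen. Il13 stayed between 2.74 and 2.88 on all 6 arrays, and Il4, Il5, Il25 and Ifng were likewise at the floor and not tested. Il33, an epithelial alarmin, was abundant, at 10.86, 10.89 and 10.49 against 11.13, 11.12 and 11.29, a difference of 0.43 (SE 0.13, limma adjusted p = 0.489). Tslp, another alarmin, differed by 0.45 (SE 0.39). Tnf was at 2.25, 2.198 and 2.23 in PBS/PBS and 2.23, 4.52 and 3.07 in PBS/PM, and Il6 at 3.92, 5.80 and 4.21 against 6.56, 4.81 and 4.17, with overlapping arrays in both.

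The list of natural killer and cytotoxic cell genes had a median difference of 1.03 over 9 tested of 15 on the array, and of 0.62 over all 15, of which 14 were positive. Cma1, which is also on the mast cell list, was among the 9 tested, at -0.12. Of the tested members, 3 passed the filter only through PBS/PM, 1 (Klrg1) passed the adjusted threshold, and 6 were higher and 0 lower at the unadjusted p. Gzma, a granule protease, read 6.76, 7.24 and 7.57 against 8.83, 8.99 and 8.56, a difference of 1.603 (SE 0.22, limma adjusted p = 0.129). Gzmb read 5.52, 5.55 and 6.62 against 6.601, 7.62 and 7.47, where the groups overlapped. Without PBS/PBS replicate 1 the median over tested members was 0.55; that array had the lowest values of Gzma, Nkg7 and Gzmb in its group. The 9 tested T cell genes had a median of 0.27, with 0 past the unadjusted p in either direction, and the median was -0.05 without PBS/PBS replicate 1 and 0.57 without PBS/PBS replicate 3.

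All 16 antigen presentation genes on the array were tested and all 16 had positive differences, with a median of 0.44, 5 higher and 0 lower at the unadjusted p, and 0 past the adjusted threshold. Across all genes tested the median was 0.0341, with 4% higher and 1.68% lower at that p. How many of all genes had a positive difference was not computed. Tap1, which carries peptides into the endoplasmic reticulum, read 7.19, 7.41 and 8.51 against 8.56, 9.55 and 8.47. H2-Eb1, a class II chain, read 11.87, 12.12 and 12.58 against 12.83, 12.70 and 12.69. In both the groups met or nearly met at PBS/PBS replicate 3. The median was 0.27 without PBS/PBS replicate 1 and 0.68 without PBS/PBS replicate 3. Interferon-induced genes were similar, with a median of 0.43 over 16 tested, 5 higher and 0 lower at the unadjusted p, and a median of 0.27 without PBS/PM replicate 2. Iigp1, an interferon-induced GTPase, read 9.93, 10.40 and 11.06 against 11.32, 12.79 and 11.51.

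Immunoglobulin transcripts, whose probes can read related copies, gave uneven results. Iglv1, a lambda light chain segment, read 5.05, 5.56 and 6.08 against 8.12, 8.44 and 8.88, a difference of 2.91 (SE 0.31, limma adjusted p = 0.0646). Ighm, the IgM heavy chain, read 12.29, 13.08 and 12.44 against 14.02, 13.95 and 13.79, a difference of 1.32 (SE 0.21, limma adjusted p = 0.194). Jchain, which joins IgM and IgA units, differed by 1.30 (SE 0.42), while the plasma cell gene Mzb1 read 6.50, 7.30 and 8.12 against 8.03, 8.25 and 11.37, with PBS/PM replicate 3 far above the rest. The B cell and plasma cell list had a median of 0.35 over 12 tested, which went to 0.04 without PBS/PBS replicate 1 and 0.61 without PBS/PBS replicate 3. Without PBS/PM replicate 1 or 2 it was 0.17 and 0.54.

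Neutrophil genes lay on the other side. Of 13 on the array, 9 were tested, with a median of -1.54, 0 higher and 6 lower at the unadjusted p, and 0 past the adjusted threshold. S100a8, a calcium-binding protein abundant in neutrophils, read 11.69, 13.57 and 14.35 in PBS/PBS and 12.00, 10.66 and 9.60 in PBS/PM, so the groups overlapped (limma adjusted p = 0.553). Mmp8, neutrophil collagenase, read 5.54, 6.52 and 7.82 against 5.35, 4.90 and 4.70 (limma adjusted p = 0.542). The mean level over the list was 8.21, 9.45 and 10.22 in PBS/PBS and 8.55, 7.74 and 7.68 in PBS/PM. Without PBS/PBS replicate 3, the array with Ngp and Camp, the median was -0.996.

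**Figure D4:**
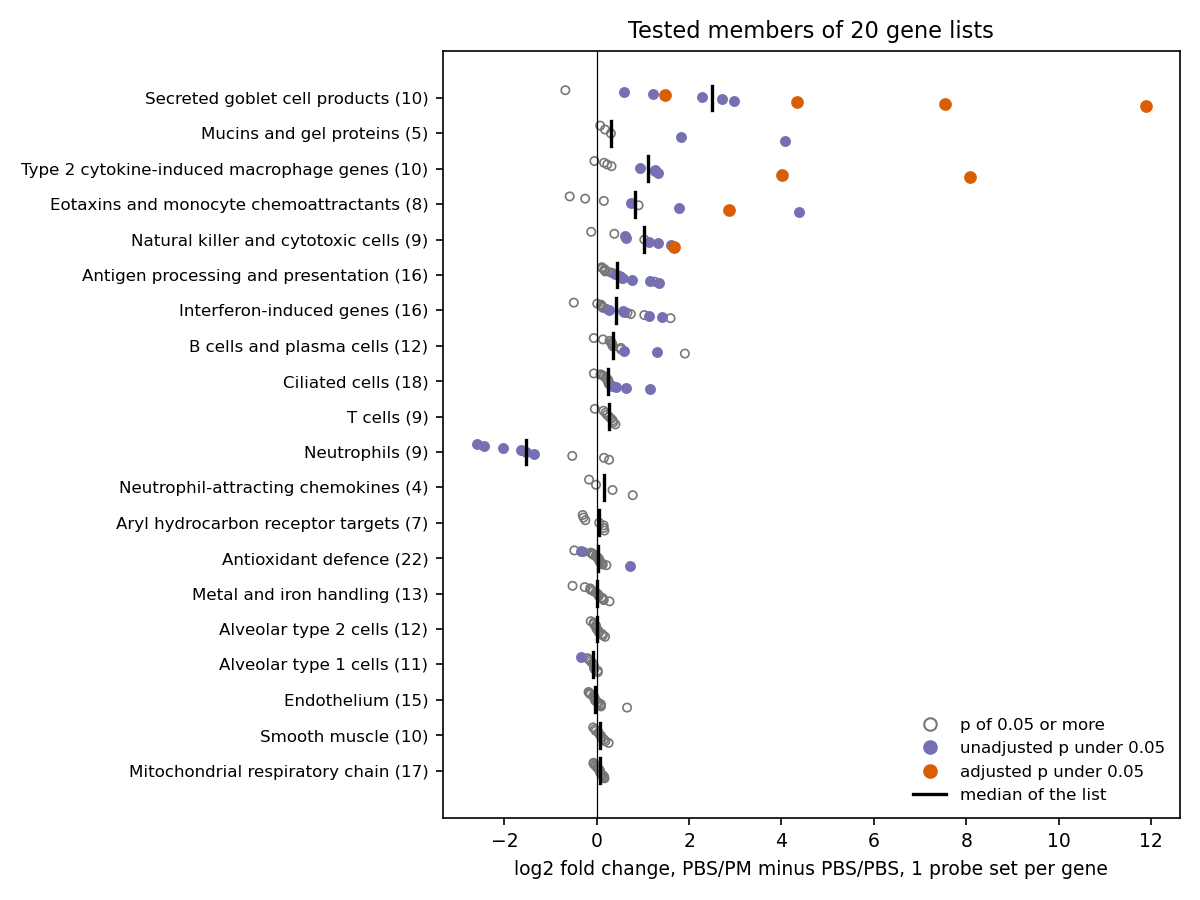
Fitted log2 fold change, PBS/PM minus PBS/PBS (horizontal axis), of every tested gene in 20 lists (number tested in brackets); open circles have an unadjusted p of 0.05 or more, violet an unadjusted p under 0.05, orange an adjusted p under 0.05, and the black bar is the list's median. Goblet cell products (median 2.49) spread to the right, neutrophil genes (median -1.54) to the left, and lung cell markers gather near 0.

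Genes known to respond to hydrocarbons, oxidants and metals showed no called difference with the names as labelled. Cyp1a1, the classical aryl hydrocarbon receptor target, read 8.57, 7.85 and 8.46 against 8.25, 8.92 and 8.16, a difference of 0.15 (SE 0.27, limma adjusted p = 0.902). The 7 tested targets of that receptor had a median of 0.05, with 0 past the unadjusted p. Hmox1, heme oxygenase, read 8.59, 8.60 and 8.21 against 8.60, 8.13 and 8.39, and the metal-binding Mt1 12.28, 12.15 and 11.10 against 11.82, 11.90 and 12.13. The antioxidant list had a median of 0.03 over 22 tested, 1 higher and 1 lower at the unadjusted p, and the metal and iron list one of 0.01 over 13. With the names OVA and PM exchanged, Hmox1 differed by 1.47 (SE 0.33, limma adjusted p = 0.0337). Cyp1b1, another target of that receptor, then differed by 1.38 (SE 0.26, limma adjusted p = 0.0239) and Cyp1a1 by -1.30 (SE 0.46, limma adjusted p = 0.0943). The medians then were -0.14 for the receptor's targets, 0.17 for the antioxidant list and 0.32 for the metal and iron list. All of these were readings at 1 time after exposure.

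Alveolar, endothelial and smooth muscle lists lay near 0, while airway secretory genes were mixed. Of 12 tested genes of club cells and upper airway secretion, with a median of -0.02, 1 (Bpifb1) passed the adjusted threshold, and 4 were higher and 0 lower at the unadjusted p. Scgb1a1, the secretoglobin of club cells, differed by -0.02 (SE 0.08) and Sftpc, a surfactant protein of alveolar type 2 cells, by -0.06 (SE 0.09). Lists for alveolar type 2 cells, alveolar type 1 cells, endothelium and smooth muscle had medians of 0.00, -0.07, -0.04 and 0.08. The 18 tested ciliated cell genes had a median of 0.25, with 4 higher at the unadjusted p. The median was 0.13 with PBS/PBS replicate 1 left out, and 0.41 or 0.09 with PBS/PM replicate 1 or 2 left out. Among them Ccno, a cyclin-like protein needed to make many cilia in one cell, read 5.03, 5.12 and 5.46 against 6.19, 6.48 and 6.38 (limma adjusted p = 0.0935). The secretoglobin Scgb3a1 read 12.69, 12.57 and 12.93 against 13.68, 13.91 and 13.57 (limma adjusted p = 0.121). Reg3g, an antimicrobial lectin of epithelia, read 9.58, 10.33 and 10.39 against 11.70, 11.88 and 11.66 (limma adjusted p = 0.128).

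On the lower side no other gene with a symbol was called. The largest uncalled differences without overlap were those of Mmp8, then Mid2, a ubiquitin ligase, at 6.93, 8.29 and 7.85 against 6.45, 6.15 and 5.74 (limma adjusted p = 0.358), and Fhl1, a LIM domain protein of muscle, at 7.55, 7.74 and 7.74 against 6.25, 6.37 and 5.70 (limma adjusted p = 0.0846). Arg2, the mitochondrial arginase, read 6.48, 6.34 and 6.90 against 4.57, 5.66 and 4.81 (limma adjusted p = 0.295). Cxcl12, a chemokine of stromal cells, read 7.37, 7.45 and 6.39 against 6.32, 5.64 and 5.05, where the groups nearly touched (limma adjusted p = 0.474). The others of this kind were Adamts9, Gatad2b, Pvr, Mmp9 and Rhobtb1, from -1.50 to -1.22. Several of these genes had other tested probe sets with smaller differences. Those of Cxcl12 differed by -0.07 and 0.11, that of Fhl1 by -0.14, that of Mid2 by -0.45 and that of Rhobtb1 by -0.09, while the other Arg2 probe set differed by -1.09.

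By probe set and by gene the balance of higher and lower differed. At an unadjusted p under 0.05, 3.2% of probe sets were higher and 4.94% lower, whereas by gene 4% were higher and 1.68% lower. Probe sets without a single symbol made up 30.5% of the lower ones, 11.9% of the higher ones and 13.3% of all tested. RNA integrity moved a little between the groups as well. The 3′ minus 5′ difference of the Gapdh control probe sets was -0.37 to -0.18 in PBS/PBS and -0.20 to 0.10 in PBS/PM, and that of beta-actin 0.41 to 0.50 and 0.48 to 0.90. Its part in the lower probe sets was not tested.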

How the data were processed

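Mouse lung RNA was read on 12 Affymetrix whole-genome mouse arrays, 3 per group. The authors deposited log2 signals normalized with GCRMA, and the labels also name MAS5. GCRMA compresses dim signals towards a floor. Groups came from the array titles. Symbols came from the platform annotation, with 34958 probe sets having 1 symbol, 932 several and 9211 none. The deposited values were used unchanged. The filter kept probe sets that reached the median of all values (4.93) in every array of either group, and 64 control probe sets were left out. The test was limma 3.58.1 in R 4.3.3 (lmFit, eBayes), 2-sided, with Benjamini-Hochberg adjustment over all 22246 probe sets and a threshold of 0.05. It was tested on simulated data. For gene counts and lists, the probe set with the highest mean stood for a gene. Named genes were those past the threshold, the 10 largest non-overlapping rises and falls, genes and cytokines the study names, and up to 4 members per list by p, plus markers. Some others were named after their values were seen. The comparison and lists were chosen with earlier results of these data known. No list was tested as a set. The number of arrays limits the precision.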

Additional observations from a re-analysis of the deposited data

How the results depend on the processing

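The 16 probe sets past the threshold became 6 with no filter on level, 39 with SAM (the significance analysis of microarrays), 38 with all 4 groups in the fit, 4326 with exchanged OVA and PM names, and 3 to 11 without 1 array. The 11 genes past 2-fold became 4, 17, 20, 754 and 3 to 11. The counts were within 1.5 times with the filter on group means, the 75th percentile as the filter, an offset, quantile normalization or a trend. A replicate block gave 4 probe sets and 4 genes, 3 of each among the calls without it. Same-numbered arrays deviated together with correlations of 0.18, -0.04 and 0.06, so the numbers were not taken to pair them, and no pairing was assumed. The 12 called genes and 3 of the 4 called probe sets without a single symbol were followed singly. They kept their sign in 203 of 203 values and lost the threshold in 97 of them. SAM and the exchanged names are not among these values. The probe sets were picked for their differences on these same arrays, which favours a kept sign. With the names exchanged, some genes named by rule turned, with a limma adjusted p under 0.05 after the exchange. They were Clec4d (3.50), Gpnmb (3.70), Mmp19 (1.40), Il1rn (4.46), Marco (2.72), Pf4 (0.99), Cxcl13 (2.03), Slc39a8 (-0.45), Ahr (-0.36), Ccnb2 (3.24), Cdh5 (-0.53) and Rtkn2 (-0.77). Hmox1, named after its values were seen, turned as well, from -0.09 to 1.47. So did several list medians. Among them were those of neutrophils (-1.54 to 0.87), T cell and lymphoid chemokines (-0.07 to 1.31) and airway ion transport (0.12 to -0.31). The cause was not tested. Signals under the median level carry only a bound. That limits, among others, Clca1, Itln1, Chil4, Rnase2a, Ccl12, Cldn22, Klrg1, Fer1l6 and Muc5ac in PBS/PBS, and Pde8a, Pvr and Rhobtb1 in PBS/PM.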
